A study of Mus musculus with 6 samples.

Results

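The proteasome is the barrel-shaped protease that degrades proteins tagged with ubiquitin. Its 20S core stacks rings of alpha subunits, which form the gate, and rings of beta subunits, some of which carry the active sites, and its 19S regulatory particle binds, unfolds and feeds in the substrate. In immune cells, and in other cells exposed to interferon, Psmb8, Psmb9 and Psmb10 are built in place of the constitutive active subunits Psmb5, Psmb6 and Psmb7, which gives the immunoproteasome, a form known for making peptides for MHC class I. In liver, proteasome activity has long been studied in alcohol exposure, since hepatocytes clear oxidized proteins and the ethanol-metabolizing enzyme CYP2E1 through it.

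The genes described here are those whose symbol begins with Psma, Psmb, Psmc, Psmd, Psme, Psmf or Psmg followed by a digit. There are 49 of them among the 13273 genes of the table, and the 3 immunoproteasome beta subunits are kept apart. Livers came from 3 ETOH-WT mice, fed the Lieber–DeCarli liquid diet with rising ETOH for 3 weeks, and from 3 PF-WT mice, pair-fed the control liquid diet of equal calories for 3 weeks. All 6 were wild type C57Bl/6 mice, described in the study's methods as female and 2 months old when the diets began, with 1 whole-liver library each. The sample labels carry a code that all mice of a diet have in common and that is another one in the other diet. What the code stands for is not stated, and what it marks and the diet cannot be told apart.

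Values are FPKM, fragment numbers corrected for transcript length and sequencing depth, as inferred from the numbers in the table, and the number of fragments behind them is unknown. Fold changes are log2 differences, ETOH-WT minus PF-WT, on the log2(FPKM + 1) scale, tested with limma, and "passed" means a Benjamini–Hochberg adjusted p under 0.05 over all 11346 genes whose mean reached 0.5 FPKM. By that rule 48 of the 49 genes could be tested. The exception was Psmc3ip, a cofactor of meiotic recombination that matches by its symbol alone, at 0.258, 0.279 and 0.421 FPKM in ETOH-WT livers and 0.327, 0.220 and 0.139 FPKM in PF-WT livers. The hepatocyte markers Alb, Apoa1, Ttr, Tat, Cps1 and Serpina1a were all abundant, between means of 650 and 53914 FPKM, and Tat alone of these passed (lower). FPKM summed to between 570652 and 625003 in ETOH-WT livers and between 567808 and 577297 in PF-WT livers. ETOH-WT mouse 1 had 0 genes listed at 0, against 86 to 163 in each of the other livers, so the table may hold only genes detected in that liver, and shares of all genes are shares of the genes it lists.

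Psmb9 was the only proteasome gene that passed, as lower in ETOH-WT livers, and 0 genes passed as higher. Over all genes tested, 6.64% passed in either direction, 3.97% as higher and 2.67% as lower. A count this small among 48 genes cannot set the family apart from these shares. At an unadjusted p under 0.05, where 14.4% of all genes were higher and 9.33% lower, the proteasome genes counted 0 higher and 3 lower, namely Psmb8, Psmb9 and Psmb10. The median log2 fold change of the 48 genes was 0.03, beside 0.02 over all genes tested, and 44 of them (91.7%) lay within 0.25 of 0 on the log2 scale, beside 70.5% of all genes. These shares are not matched for level, as the median level was 49.3 FPKM for the 48 and 7.44 FPKM over all genes tested. The values of the diets did not overlap for 10 of the 48, beside 29.1% of all genes. Those lying above were Psmc5, Psmd13, Psme3, Psme4 and Psmf1, and those lying below were Psmc4, Psme2b, Psmb8, Psmb9 and Psmb10.

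**Figure D1:**
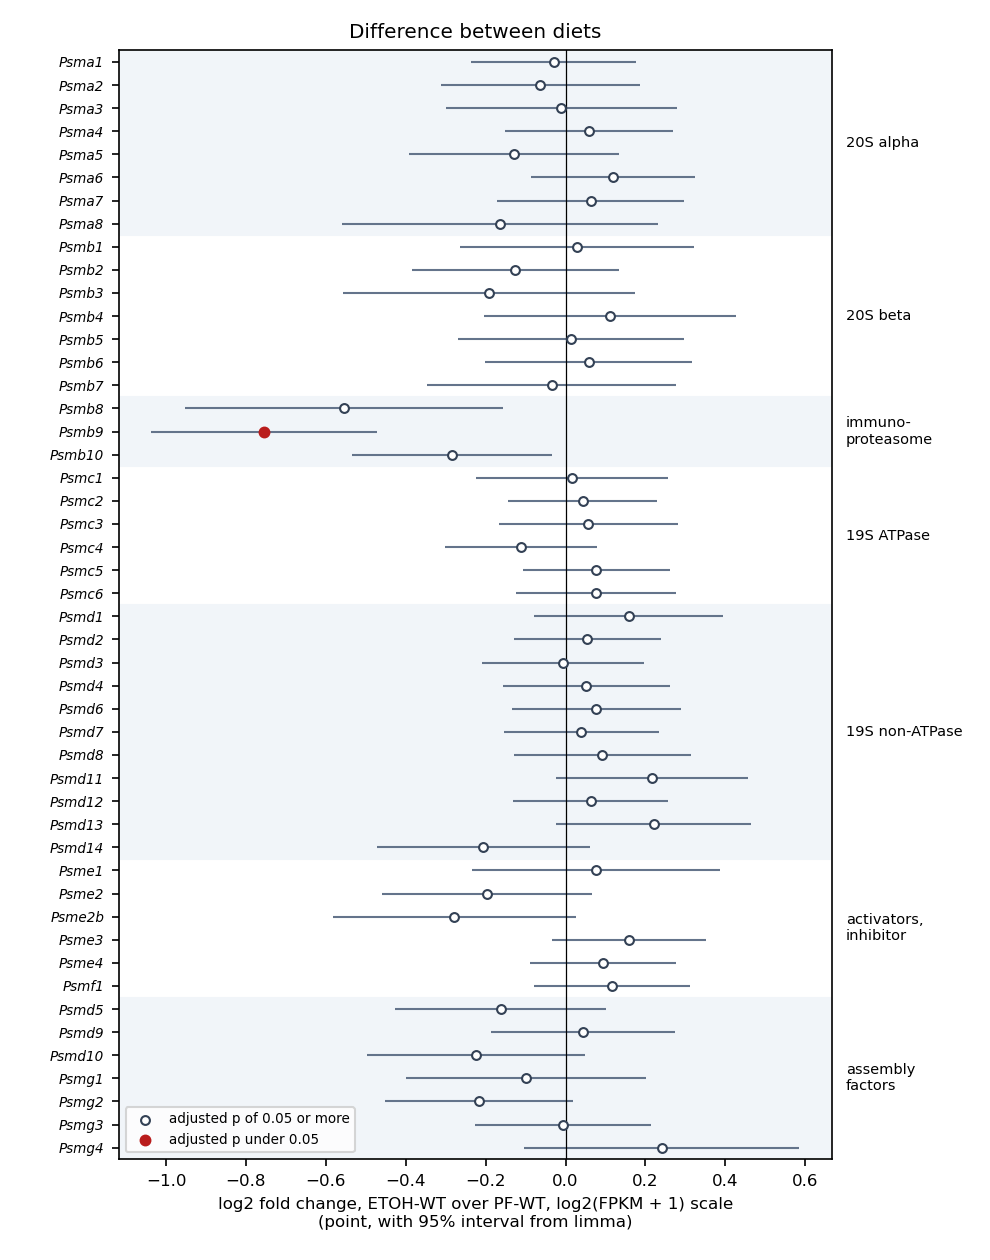
Log2 fold change (ETOH-WT over PF-WT, log2(FPKM + 1) scale) of the 48 proteasome genes tested, as points with 95% intervals from limma, in groups by role, where a filled point is an adjusted p under 0.05. Psmb9 at -0.75 is the filled point, and the intervals of Psmb8, Psmb9 and Psmb10 lie below 0, while those of the other 45 genes cross it.

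Psmb9, the single gene that passed, is an immunoproteasome subunit. Stretches near the start sites of Psmb9 and Psmb8 are therefore shown first, beside those of their constitutive counterparts Psmb6 and Psmb5. Psmb10 and Psmb7 are not shown, since the Psmb10 stretch held none of the motifs marked below and no stretch was available for Psmb7. The sequences are from RefSeq on GRCm38.p6, read 5′ to 3′ along each gene, and positions count from the RefSeq start site. Capitals in Psmb9 mark a CCAAT box (read on the opposite strand, 8 bases before the start), in Psmb8 the letters TTCNNNGAA of the GAS element, the interferon-gamma activated site (first base 97 before the start), and in Psmb6 and Psmb5 the letters TGACNNNGC of the antioxidant response element, the class of element through which Nfe2l1 raises proteasome genes (first bases 9 and 47 before the start). They lie at chr17:34187322-34187350 (minus strand), chr17:34198088-34198116 (plus strand), chr11:70525338-70525366 (plus strand) and chr14:54618024-54618052 (minus strand).
Psmb9: gcgcagccgctgATTGGaaagccgagccc
Psmb8: tcctccgctgTTCCCAGAAgatgcccccc
Psmb6: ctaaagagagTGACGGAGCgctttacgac
Psmb5: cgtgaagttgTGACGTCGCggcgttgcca

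Of the 49 genes, 41 had a RefSeq window of 300 bases (250 before and 50 after the start), in 44 windows, and the motifs were sought on both strands. TGACNNNGC was found in 6 windows (13.6%), beside 12.4% of all 32851 windows, those of Psmb5, Psmb6, Psmc6, Psmd12, Psmd9 and Psme4. TTCNNNGAA was found in 3 windows (6.82%, beside 8.3% of all) and CCAAT in 14 (31.8%, beside 37.4% of all). The core of the interferon-stimulated response element, GAAA on either side of any pair of bases and again GAAA, was found in 5 windows (11.4%, beside 3.44% of all), those of Psmb3, Psmd4, Psmd9, Psme1 and Psmg4, and in 0 of the windows of Psmb8, Psmb9 and Psmb10. In the windows of these genes, 0 pairs of sites of different motifs overlapped. A match is a stretch of letters, with no evidence here that a factor binds it.

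Psmb9 (ENSMUSG00000096727) encodes the immunoproteasome subunit that takes the place of Psmb6 and lies in the MHC class II region of chromosome 17, at 34181988 to 34187764 on GRCm38. It had 10.9, 9.84 and 9.70 FPKM in ETOH-WT livers and 20.9, 17.6 and 15.2 FPKM in PF-WT livers. Every ETOH-WT liver lay below every PF-WT liver, and the ETOH-WT livers lay closer together (10.1 ± 0.632 FPKM) than the PF-WT livers (17.9 ± 2.86 FPKM; SD, n = 3 each). The mean was lower by 43.4% in ETOH-WT livers, with a log2 fold change of -0.75 (standard error 0.12, limma adjusted p = 0.0151). The adjusted p from limma was 0.0662 when ETOH-WT mouse 3 was left out and 0.0670 when PF-WT mouse 2 was, so the call was lost in either case, at log2 fold changes of -0.73 and -0.76. The share of all genes that passed as lower was 0.669% and 0.671% there. Psmb9 overlaps Tap1, the peptide transporter gene read from the opposite strand, by 212 bases, their RefSeq start sites are 225 bases apart, and their windows share 275 bases. The sources used here do not state whether the counting used strand, so reads of the shared bases cannot be assigned.

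Psmb8 (ENSMUSG00000024338) encodes the subunit that replaces Psmb5, on chromosome 17 at 34197721 to 34201454, beginning 9956 bases after the end of Psmb9 and 495 bases after the end of Tap1. It had 20.4, 19.4 and 18.4 FPKM in ETOH-WT livers and 36.2, 31.1 and 21.4 FPKM in PF-WT livers. The diets did not overlap, but PF-WT mouse 3 lay close to the ETOH-WT livers. The log2 fold change of -0.55 (standard error 0.17) did not pass over all livers (limma adjusted p = 0.0986), and it was -0.76 without PF-WT mouse 3, where it passed (limma adjusted p = 0.0158), with 2.33% of all genes as lower. When any of the other livers was left out it did not pass, at limma adjusted p between 0.148 and 0.274. It was smallest without PF-WT mouse 1, at -0.40 (limma adjusted p = 0.212).

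Psmb10 (ENSMUSG00000031897) replaces Psmb7 and lies on another chromosome, 8, at 105935735 to 105938444. It had 33.4, 35.4 and 32.3 FPKM in ETOH-WT livers and 42.4, 46.2 and 35.6 FPKM in PF-WT livers. The diets again did not overlap, with PF-WT mouse 3 the lowest of its diet, and the log2 fold change of -0.28 (standard error 0.11) did not pass (limma adjusted p = 0.165). With livers weighted by limma's array weights, Psmb8 and Psmb10 passed along with Psmb9, at adjusted p of 0.0111 and 0.0177, but so did many other genes, 8.33% of all as lower, beside 2.67% with equal weights. All of these subunits were lowest in ETOH-WT mouse 3. Psmb11, the thymus subunit of the same series, is not among the genes analysed here.

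Summed over Psmb8, Psmb9 and Psmb10, the level was 64.6, 64.6 and 60.4 FPKM in ETOH-WT livers and 99.6, 94.9 and 72.3 FPKM in PF-WT livers. The sums did not overlap, and their mean was lower by 28.9% in ETOH-WT livers. None of the constitutive counterparts passed. Psmb6, the caspase-like subunit and the most abundant proteasome gene of the table, had 186, 231 and 190 FPKM in ETOH-WT livers and 181, 190 and 210 FPKM in PF-WT livers (log2 fold change 0.06, standard error 0.11, limma adjusted p = 0.800). Psmb5, the chymotrypsin-like subunit, had 54.3, 74.8 and 60.4 FPKM in ETOH-WT livers and 61.5, 59.4 and 65.4 FPKM in PF-WT livers (log2 fold change 0.01, standard error 0.12, limma adjusted p = 0.962). Psmb7, the trypsin-like subunit, had 106, 144 and 105 FPKM in ETOH-WT livers and 122, 111 and 127 FPKM in PF-WT livers (log2 fold change -0.04, standard error 0.13, limma adjusted p = 0.905). In all of them ETOH-WT mouse 2 was the highest liver and the diets overlapped. The sign of these small differences was not stable: Psmb5 was at -0.017 with median-ratio scaling and -0.057 with quantile normalization, and Psmb6 at -0.011 with quantile normalization.

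The ratio of each immunoproteasome subunit to its counterpart within a liver does not depend on how the library was scaled. Psmb9 over Psmb6 was 0.0585, 0.0427 and 0.0510 in ETOH-WT livers and 0.116, 0.0928 and 0.0724 in PF-WT livers, so every ETOH-WT liver lay below every PF-WT liver, with a ratio of the means of 0.542. Psmb8 over Psmb5 was 0.375, 0.260 and 0.305 in ETOH-WT livers and 0.590, 0.523 and 0.328 in PF-WT livers, and here PF-WT mouse 3 lay within the range of the ETOH-WT livers. Psmb10 over Psmb7 was 0.314, 0.245 and 0.309 in ETOH-WT livers and 0.348, 0.414 and 0.280 in PF-WT livers, which overlap as well. These ratios are a description, and no test was run on them.

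**Figure D2:**
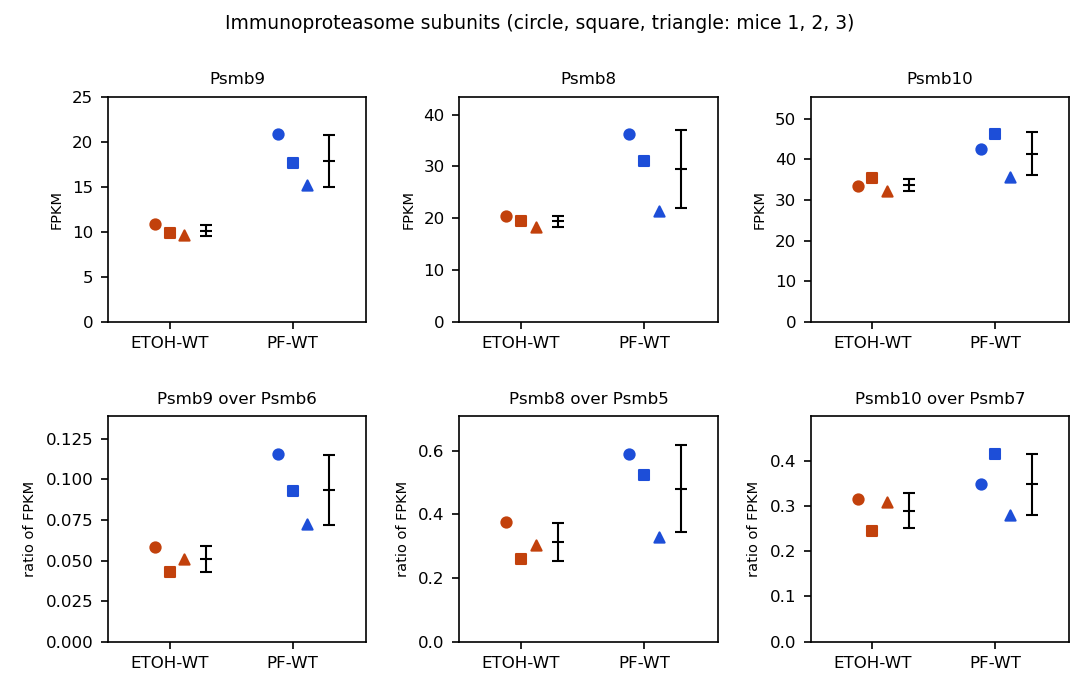
Upper row, FPKM of Psmb9, Psmb8 and Psmb10 in each liver; lower row, the ratio of each to its constitutive counterpart (Psmb6, Psmb5, Psmb7) in the same liver, ETOH-WT left of PF-WT, with bars for the mean ± SD of 3 livers. All ETOH-WT points lie below all PF-WT points in the upper panels and for Psmb9 over Psmb6, and PF-WT mouse 3 (triangle) is the lowest of its diet in every panel.

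Psmb8, Psmb9 and Psmb10 are textbook interferon targets and are also rich in lymphocytes and macrophages, so markers of these are given beside them. The marker lists were chosen with earlier results of these data known, so they are a description. Of 13 interferon-response genes 8 passed as lower and 0 as higher, beside 2.67% and 3.97% of all genes tested. The median log2 fold change of the 13 was -0.96, and 1 of them had a positive value, Cxcl10 (0.19, not passed). Their summed level was 86.2 to 102 FPKM in ETOH-WT livers and 144 to 233 FPKM in PF-WT livers, without overlap and lowest among PF-WT livers in mouse 3. Nlrc5, the activator of MHC class I genes, had a log2 fold change of -0.92 (limma adjusted p = 0.0349), and it stayed past the threshold when PF-WT mouse 3 (adjusted p = 0.0305) or ETOH-WT mouse 1 (adjusted p = 0.0240) was left out, and not for any of the other livers (adjusted p between 0.0852 and 0.128). Irf1, a factor known to drive Psmb9, had -0.28 (limma adjusted p = 0.423), and was at -0.061 once PF-WT mouse 1 was left out and at -0.46 once PF-WT mouse 3 was.

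Of the 9 lymphocyte markers sought, 8 were in the table, 5 could be tested and 0 passed. Of these 5, 4 had a negative log2 fold change (median -0.25), and Coro1a, an actin-binding protein of leukocytes, did not overlap between the diets (log2 fold change -0.56, unadjusted p from limma 0.0212). Cd3g was the 1 with a positive value (0.15). Coro1a and Ptprc, the most abundant of the list, had means of 4.07 and 2.87 FPKM over the 6 livers. The other markers found had means of at most 0.897 FPKM. The summed level of the 8 was 7.69 to 8.82 FPKM in ETOH-WT livers and 7.40 to 17.1 FPKM in PF-WT livers, lower by 32.0% in the mean of ETOH-WT livers. Of 11 Kupffer cell and macrophage markers 0 passed and 10 had a negative log2 fold change (median -0.23). The 6 hepatocyte markers had a similar median of -0.22, with 5 negative and 1 positive. The Kupffer cell and macrophage sum was 308 to 429 FPKM in ETOH-WT livers and 296 to 550 FPKM in PF-WT livers, lower by 17.5% in the mean of ETOH-WT livers. Both sums overlapped between the diets and were lowest of all livers in PF-WT mouse 3, the PF-WT liver with the least Psmb8, Psmb9 and Psmb10, and none of the defining markers of either list found in the table was at 0. The part of these cells and of interferon signaling in the Psmb8, Psmb9 and Psmb10 values was not tested, and in whole liver fewer cells of a type and less RNA per cell cannot be told apart.

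Partners of the immunoproteasome in MHC class I peptide supply went in both directions. Of 7 such genes (Tap1, Tap2, Tapbp, B2m, Erap1, Calr and Pdia3) 0 passed as lower, and Pdia3, a chaperone of the peptide-loading complex that also serves protein folding at large, was the 1 that passed as higher (log2 fold change 0.67, limma adjusted p = 0.0323). Tap1, the neighbor of Psmb9, had 7.08, 6.34 and 7.07 FPKM in ETOH-WT livers and 14.5, 9.06 and 7.06 FPKM in PF-WT livers. The high value was that of PF-WT mouse 1, the diets overlapped, and the log2 fold change was -0.46 (standard error 0.21, limma adjusted p = 0.239; -0.20 without PF-WT mouse 1). B2m, the light chain of MHC class I, had 2881, 2781 and 2792 FPKM in ETOH-WT livers and 2973, 2941 and 2837 FPKM in PF-WT livers (log2 fold change -0.05, limma adjusted p = 0.825).

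The subunits of the constitutive 26S proteasome, 31 in all, showed no difference that passed. They comprise 7 alpha subunits (without the testis form Psma8), 7 beta subunits, 6 ATPases and 11 non-ATPase subunits. Of these 0 passed, 0 had an unadjusted p under 0.05, and their log2 fold changes ran between -0.21 and 0.22 with a median of 0.05. The 95% interval from limma stayed within 0.5 of 0 on the log2 scale for 30 of the 31, with Psmb3 as the exception at a lower bound of -0.56, so larger shifts of the mean were outside the intervals of the others.

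**Figure D3:**
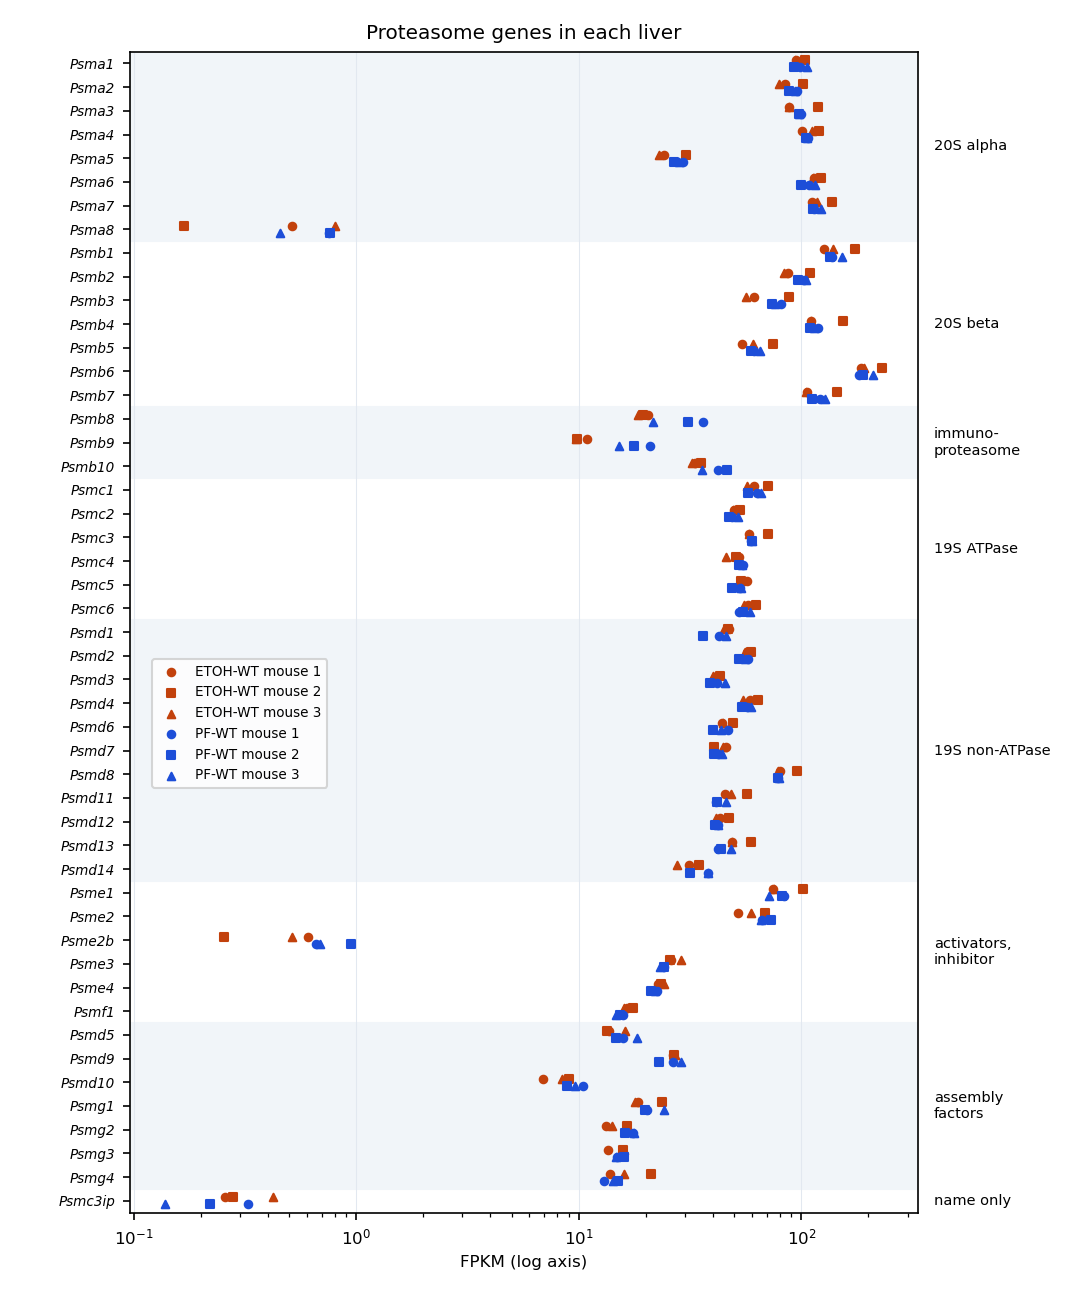
FPKM of each of the 49 genes in each liver, on a log axis, in groups by role, with ETOH-WT livers in orange above PF-WT livers in blue, and circles, squares and triangles for mice 1, 2 and 3. Constitutive 26S subunits lie between means of 26.9 and 198 FPKM, and the diets overlap for all of them except Psmc4, Psmc5 and Psmd13. Psma8, Psme2b and Psmc3ip lie below 1 FPKM in every liver.

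Among the alpha subunits, the summed level was 617, 736 and 625 FPKM in ETOH-WT livers and 652, 622 and 669 FPKM in PF-WT livers. Psma6 had the most positive difference of the group, with 114, 123 and 113 FPKM in ETOH-WT livers and 109, 99.3 and 115 FPKM in PF-WT livers (log2 fold change 0.12, standard error 0.09, limma adjusted p = 0.465). The diets overlapped, with ETOH-WT mouse 2 highest. Psma8, which takes the place of Psma7 in testis, was low, at 0.517, 0.168 and 0.800 FPKM in ETOH-WT livers and 0.755, 0.759 and 0.453 FPKM in PF-WT livers (log2 fold change -0.16, standard error 0.17, limma adjusted p = 0.610, and -0.48 with a pseudocount of 0.1). Its highest and its lowest values were both in ETOH-WT livers. Psma5, singled out here after its values were seen, had a mean of 26.9 FPKM over the 6 livers, while the other constitutive alpha subunits had means between 90.5 and 119 FPKM, although each ring holds 1 copy of each subunit. Its values were 24.1, 30.2 and 23.0 FPKM in ETOH-WT livers and 29.4, 26.7 and 28.2 FPKM in PF-WT livers, which overlap.

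The constitutive beta subunits summed to 731, 974 and 743 FPKM in ETOH-WT livers and 804, 775 and 851 FPKM in PF-WT livers. Psmb4, a structural subunit of the ring, had 111, 154 and 110 FPKM in ETOH-WT livers and 119, 109 and 114 FPKM in PF-WT livers (log2 fold change 0.11, standard error 0.14, limma adjusted p = 0.670), and without ETOH-WT mouse 2 its log2 fold change was -0.048. At the other end stood Psmb3, also structural, with 61.5, 88.1 and 56.1 FPKM in ETOH-WT livers and 80.7, 73.8 and 76.4 FPKM in PF-WT livers (log2 fold change -0.19, standard error 0.16, limma adjusted p = 0.510). ETOH-WT mouse 2 lay above all PF-WT livers for both genes, and the other ETOH-WT livers lay below all PF-WT livers for Psmb3.

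The 6 ATPases form the ring that unfolds the substrate and threads it into the core, and their means reached up to 62.7 FPKM. Their sum was 336, 361 and 320 FPKM in ETOH-WT livers and 332, 321 and 344 FPKM in PF-WT livers. Psmc5 had 56.7, 53.7 and 53.7 FPKM in ETOH-WT livers and 53.2, 48.95 and 53.4 FPKM in PF-WT livers. The ETOH-WT values all lay above, by a small margin (log2 fold change 0.08, standard error 0.08, limma adjusted p = 0.608). Psmc4 had 52.2, 50.9 and 46.1 FPKM in ETOH-WT livers and 54.6, 52.5 and 54.0 FPKM in PF-WT livers, with all ETOH-WT values below (log2 fold change -0.11, standard error 0.08, limma adjusted p = 0.462).

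The 11 non-ATPase subunits hold the receptors for ubiquitin chains, the scaffold and the deubiquitinase of the lid. Positive values were found for 9 of the 11, none of which passed, and their sum was 543, 597 and 528 FPKM in ETOH-WT livers and 531, 499 and 548 FPKM in PF-WT livers. Psmd13, a lid scaffold subunit, had 48.6, 59.5 and 48.9 FPKM in ETOH-WT livers and 42.2, 43.7 and 48.1 FPKM in PF-WT livers. The diets did not overlap, and the log2 fold change of 0.22 (standard error 0.11) did not pass (limma adjusted p = 0.256). Its locus overlaps Sirt3 by 342 bases. The largest overlaps of proteasome loci were those of Psmd9 with Hpd (10921 bases), Psmb7 with Nek6 (6571), Psmd1 with Gm21972 (5515) and Psmc3 with Slc39a13 (4579). Reads of bases shared in this way cannot be assigned here. Psmd11, also of the lid and named after its values were seen, had 45.6, 57.0 and 48.3 FPKM in ETOH-WT livers and 41.5, 41.8 and 45.9 FPKM in PF-WT livers, with a log2 fold change of 0.22 (standard error 0.10, limma adjusted p = 0.260; 0.12 without ETOH-WT mouse 2). Psmd14, the deubiquitinase that strips the chain as the substrate enters, had 31.1, 34.6 and 27.6 FPKM in ETOH-WT livers and 38.2, 31.6 and 38.2 FPKM in PF-WT livers (log2 fold change -0.21, standard error 0.12, limma adjusted p = 0.328). Its diets overlapped through PF-WT mouse 2.

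The spread of the constitutive subunits lay largely between single livers. ETOH-WT mouse 2 was the highest liver for 24 of the 31 (77.4%), and for all 7 beta subunits, while it was the highest for 24.2% of all genes tested. Its median-ratio scaling factor was 1.01, within the range of 0.943 to 1.03 over the 6 livers. The median coefficient of variation within a diet over these 31 genes was 11.05% in ETOH-WT livers and 4.89% in PF-WT livers, beside 11.5% and 10.8% over all genes tested. For Psmb8, Psmb9 and Psmb10 it was 5.14% in ETOH-WT livers and 16.0% in PF-WT livers. Without ETOH-WT mouse 2 the median log2 fold change of the 31 was -0.03, 0 still passed, and Psma5, Psmb2, Psmb3 and Psmd14 were lower at an unadjusted p under 0.05. At that threshold Psmd11 was higher without ETOH-WT mouse 1, and Psmd14 was lower without PF-WT mouse 2 and with quantile normalization. With array weights 3 of the 31 were higher and 1 was lower. The share of all genes at that threshold was not taken for these fits, so the genes named cannot be set against it. The subunits share libraries, so these counts describe 6 livers and carry no test.

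**Figure D4:**
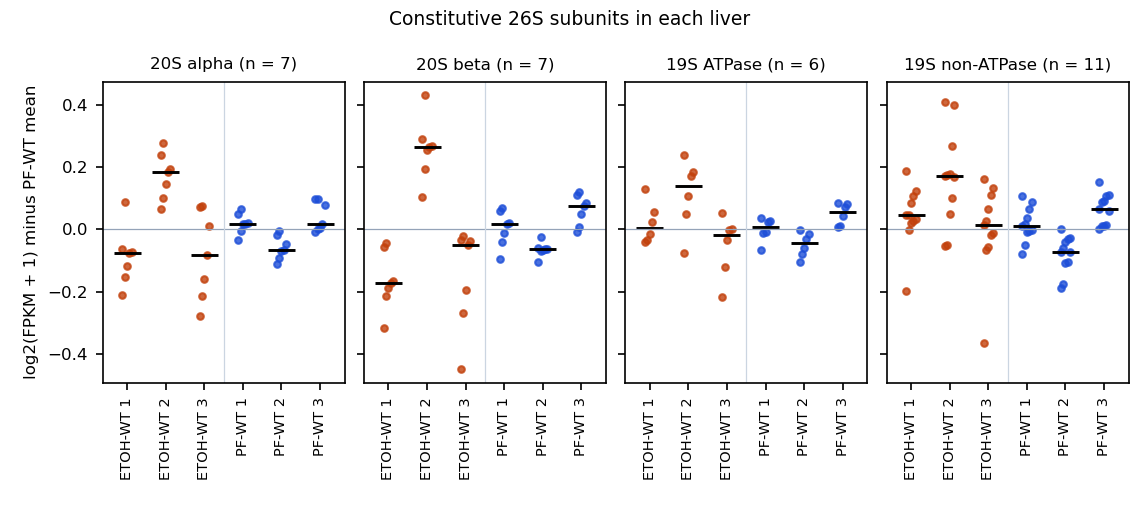
Level of each constitutive subunit in each liver as log2(FPKM + 1) minus the PF-WT mean of that gene, by role, ETOH-WT livers in orange left of PF-WT livers in blue, with a black bar at the median of the group. The median of ETOH-WT mouse 2 is the highest in all 4 panels, and the medians of the other ETOH-WT livers lie near or below 0.

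The balance of core and cap overlapped between the diets. The beta sum over the alpha sum was 1.18, 1.32 and 1.19 in ETOH-WT livers and 1.23, 1.25 and 1.27 in PF-WT livers. The ATPase sum over the alpha sum was 0.545, 0.491 and 0.511 in ETOH-WT livers and 0.509, 0.516 and 0.514 in PF-WT livers. Both ratios overlapped, and both were more spread in ETOH-WT livers, with mouse 2 at an extreme.

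Among the activators and the inhibitor, which dock on the core in place of the 19S particle, 0 of 6 passed. Psme1 and Psme2, the PA28 subunits that interferon raises together with the immunoproteasome, lie near each other on chromosome 14, with 5911 bases between them. They were chosen for description after their values were seen. Psme1 had 74.9, 102 and 75.4 FPKM in ETOH-WT livers and 83.8, 81.8 and 71.4 FPKM in PF-WT livers (log2 fold change 0.08, standard error 0.13, limma adjusted p = 0.778), and its sign turned to -0.035 with array weights and to -0.067 without ETOH-WT mouse 2. Psme2 had 51.9, 68.7 and 59.3 FPKM in ETOH-WT livers and 66.5, 73.2 and 65.8 FPKM in PF-WT livers (log2 fold change -0.20, standard error 0.11, limma adjusted p = 0.340). Each gene overlapped between the diets, yet Psme2 over Psme1 did not, at 0.693, 0.675 and 0.787 in ETOH-WT livers and 0.794, 0.896 and 0.921 in PF-WT livers, a margin that is narrow between ETOH-WT mouse 3 and PF-WT mouse 1.

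Psme3, the nuclear PA28 gamma, had 26.04, 25.6 and 28.7 FPKM in ETOH-WT livers and 24.1, 24.3 and 23.2 FPKM in PF-WT livers. All ETOH-WT values lay above (log2 fold change 0.16, standard error 0.08, limma adjusted p = 0.296). Psme2b had the most negative value of the group at -0.28 (standard error 0.13, limma adjusted p = 0.2497), from 0.606, 0.254 and 0.516 FPKM in ETOH-WT livers and 0.658, 0.950 and 0.688 FPKM in PF-WT livers. It is a copy of Psme2 with 1 exon in the annotation, and reads of Psme2 may have been counted to it, so its value is uncertain, and at this low level the log2 fold change also depended on the pseudocount, with -0.67 at 0.1 and -0.17 at 2. Psme4, the PA200 activator, and Psmf1, the inhibitor PI31, lay above in all ETOH-WT livers by small margins, with log2 fold changes of 0.09 and 0.12, and neither passed.

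The assembly factors, chaperones that build the core (Psmg1 to Psmg4) and the base of the cap (Psmd5, Psmd9 and Psmd10) without staying in the finished particle, summed to 106, 126 and 116 FPKM in ETOH-WT livers and 118, 113 and 127 FPKM in PF-WT livers. Of 7 genes 0 passed, and 5 had a negative log2 fold change. Psmd10, also known as gankyrin, had 6.89, 9.07 and 8.37 FPKM in ETOH-WT livers and 10.4, 8.83 and 9.61 FPKM in PF-WT livers (log2 fold change -0.22, standard error 0.12, limma adjusted p = 0.296). Psmg4 had 13.8, 21.2 and 16.0 FPKM in ETOH-WT livers and 12.9, 15.05 and 14.2 FPKM in PF-WT livers (log2 fold change 0.24, standard error 0.15, limma adjusted p = 0.374). The high ETOH-WT value of Psmg4 was that of mouse 2, without which its log2 fold change was 0.079 (0.37 without ETOH-WT mouse 1), and both genes overlapped between the diets.

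The other genes of the pathway were read from a list of 46, of which 41 were in the table and could be tested, and 0 passed in either direction. At an unadjusted p under 0.05, 9 were higher and 1 was lower, beside 14.4% and 9.33% of all genes, and the list's median log2 fold change was 0.09, beside 0.02 over all genes. The lower gene was Ufd1l, the cofactor of p97 that brings ubiquitinated proteins from the endoplasmic reticulum (log2 fold change -0.27). Of its ubiquitin genes, named after their values were seen, Ubb had 57.9, 62.6 and 62.4 FPKM in ETOH-WT livers, all above its PF-WT values, with a log2 fold change of 0.29, and Rps27a, which encodes ubiquitin fused to a ribosomal protein and has near-identical copies in the genome, had 0.30. With array weights 7 genes of the list passed as higher and 1 as lower, beside 11.7% and 8.33% of all genes tested.

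Of the genes that control or finish the particle, Pomp, the chaperone that completes the core, had 86.1, 118 and 89.7 FPKM in ETOH-WT livers and 91.4, 92.6 and 102 FPKM in PF-WT livers. ETOH-WT mouse 2 was again the highest, the log2 fold change was 0.02 (standard error 0.13), and its sign turned to -0.0062 with median-ratio scaling, to -0.021 with quantile normalization and to -0.019 with array weights. Nfe2l1, the factor that raises constitutive proteasome subunits when the particle is inhibited, had 45.2, 39.0 and 43.3 FPKM in ETOH-WT livers and 33.6 and 30.3 FPKM in PF-WT mice 1 and 2, and it was listed at 0 in PF-WT mouse 3. A gene of this level at 0 in 1 liver can be a failed estimate, so no fold change is given. Nfe2l2, the antioxidant factor that binds the same class of element, had 39.8, 26.2 and 29.96 FPKM in ETOH-WT livers and 35.1, 40.5 and 39.5 FPKM in PF-WT livers, which overlap through ETOH-WT mouse 1 (log2 fold change -0.27, standard error 0.15, limma adjusted p = 0.312).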

How the data were processed

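RNA-seq was run on whole liver, 1 library for each of 3 ETOH-WT and 3 PF-WT mice. The authors deposited 1 table of values per gene and liver, taken here as FPKM from their size and form, with 0 further columns of sample values. STAR, GRCm38, HTSeq-count and DESeq2 appear in the paper's methods. HTSeq 0.11.2 and 1.6.3, TopHat2 2.0.11 and cutadapt appear in the submitters' processing notes. The program and scaling behind the FPKM, and the depth: not given in the sources used here, so no counting error could be attached to a value.

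Values were transformed to log2(FPKM + 1). Genes averaging at least 0.5 FPKM (11346 of 13273) entered limma 3.58.1 in R 4.3.3 (lmFit, eBayes with trend, diet as the only term, 4 residual and 4.00 prior degrees of freedom), and two-sided p-values were adjusted by the Benjamini-Hochberg method. FPKM are not counts, so the study's count test was not used. The fit was tested on simulated data.

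Named are the genes that passed, the highest and lowest log2 fold change of each role, the active beta subunits and their immunoproteasome counterparts, genes under the filter, Nfe2l1, Nfe2l2 and Pomp, and others where said. Members and lists were chosen with earlier results of these data known. Gene positions come from the table (GRCm38), with starts counted from 1, and 39 of the 49 genes have the ends of GENCODE vM21. Promoter windows are from RefSeq (GRCm38.p6). Python 3.11.15, pandas 2.3.3 and matplotlib 3.10.9 were used for motifs and figures. The fit was repeated with a pseudocount of 0.1 or 2, without a filter or with a mean of 1 FPKM as the minimum, with median-ratio scaling, quantile normalization, array weights or a replicate block, and with each liver left out. Results for some genes are not reported here.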

Additional observations from a re-analysis of the deposited data

How the results depend on the processing

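Under every alternative the count of proteasome genes higher in ETOH-WT livers was 0. The count lower was 1, Psmb9, except that it was 3 with array weights and ranged between 0 and 2 on leaving out single livers (0 once ETOH-WT mouse 3 or PF-WT mouse 2 was dropped, 2 once PF-WT mouse 3 was). The number of all genes lower moved too, with 303 in all livers, 945 with array weights, 76 once ETOH-WT mouse 3 or PF-WT mouse 2 was dropped and 265 once PF-WT mouse 3 was. The pathway genes gave 7 higher and 1 lower with array weights, and on leaving out single livers between 0 and 1 higher (1 once ETOH-WT mouse 2 was dropped), with 0 lower, while all genes gave 1327 higher with array weights and 347 without that mouse, beside 450. Differences that turned in sign, none of which passed, were those of Psmb5 (-0.017 with median-ratio scaling, -0.057 with quantile normalization), Psmb6 (-0.011 with quantile normalization), Pomp (-0.0062 with median-ratio scaling, -0.021 with quantile normalization, -0.019 with array weights) and Psme1 (-0.035 with array weights). On leaving out single livers, the range of the log2 fold change crossed 0 for Psmb5 between -0.11 and 0.11, Psmb6 between -0.040 and 0.12, Psmb7 between -0.18 and 0.045, Psma8 between -0.31 and 0.0025, Psmb4 between -0.048 and 0.19, Psme1 between -0.067 and 0.15 and Pomp between -0.12 and 0.11. The cause of these shifts was not tested. The replicate block left the count of proteasome genes at 0 higher and 1 lower (Psmb9 adjusted p from limma 0.0231) and changed no call among the proteasome and pathway genes, with 253 higher and 201 lower over all genes, against 450 and 303 without it. Deviations of mice with the same number correlated at -0.010, -0.016 and -0.034 across genes, and those of mice with different numbers between -0.069 and 0.088. A shared feeding pair need not leave a trace in this measure, so it cannot tell whether the numbers pair the mice, and the labels do not say. Precision rests on 3 livers a diet, and fragment depth is unknown.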
